A study of Mus musculus with 15 samples.

Results

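Genes of brain endothelium and the blood-brain barrier were measured by mRNA-seq in E18 dorsal forebrain, the precursor of cortex. The 10 genes were Cldn5, Pecam1, Cdh5, Flt1, Kdr, Tek, Tie1, Mfsd2a, Slco1c1 and Abcb1a, out of 53337 genes in the table. They were chosen by name for their place in the vessel wall, with earlier results of these data known. Offspring were C57BL/6J and came from dams given a continuous infusion of arginine vasopressin (AVP), a pituitary hormone that retains water and constricts vessels, or of saline. Males numbered 4 with AVP and 4 with saline, and females 3 with AVP and 4 with saline, 15 libraries in all, and no group carried a transgene or deletion. A further AVP female was sequenced, but the paper left it out as an outlier of high variance. The female comparisons here lack it too. Each library came from a separate brain, and the brains of a group came from separate litters. The paper's methods give fewer litters than brains, so males and females shared litters, but no label says which. The fits over both sexes and of the interaction of treatment and sex treat these libraries as independent. Libraries are numbered within their group, and the numbers pair nothing.

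The endothelial cells of brain capillaries are sealed to each other by tight junctions and carry few vesicles, so most nutrients and hormones reach the brain through named transporters. Vascular endothelial growth factor (VEGF) and the angiopoietins act on receptor kinases of these cells to start and to settle vessel growth. Wnt ligands from neural cells switch on the barrier programme in the embryo. At E18 the barrier of the mouse cortex is already in place while the vessel bed is still growing.

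Values were TPM, a transcript's share of its library after correction for length, summed over the transcripts of a gene. The number of reads behind each value is unknown. In bulk tissue, fewer endothelial cells and less RNA per cell cannot be told apart. AVP and saline were compared with limma's moderated test on log2(TPM + 0.5), with Benjamini-Hochberg adjustment over all genes tested and a threshold of 0.05. For genes of low TPM this scale gives too small a difference.

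The tissue carried both neuronal and vascular transcripts. The 9 neuronal markers summed to between 4145 and 5527 TPM per library and the 10 endothelial genes to between 139 and 254 TPM. Transcripts under 200 nt took 6.86% to 14.8% of a library's TPM, most in AVP male 1. Of the 15 libraries, 14 carried the sex-linked transcripts of their label. Saline male 3 held Xist, which is made from the inactive X chromosome, at 266 TPM, and 4 Y-linked genes at 0.489 TPM in sum, as in the female libraries. It is kept in its labelled group below, and values without it are given for part of the results, beside them or in the paragraph on this library.

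Levels per length differed widely between the 10 genes. The tight junction gene Cldn5 stood highest at 79.8 ± 15.02 TPM (mean ± SD, n = 15), above every other member in every library. The transporters Slco1c1 and Mfsd2a followed at 31.3 ± 5.08 and 22.6 ± 2.48 TPM. Kdr (14.6 ± 3.03), Pecam1 (12.96 ± 2.45) and Cdh5 (11.4 ± 3.27) lay within each other's spread, as did Tie1 (8.62 ± 1.89), Flt1 (7.86 ± 1.66) and Tek (6.87 ± 1.59). The efflux pump gene Abcb1a was lowest at 4.02 ± 0.721 TPM. Mfsd2a varied least between libraries, with a coefficient of variation of 10.9%, and Cdh5 most, at 28.7%.

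**Figure D1:**
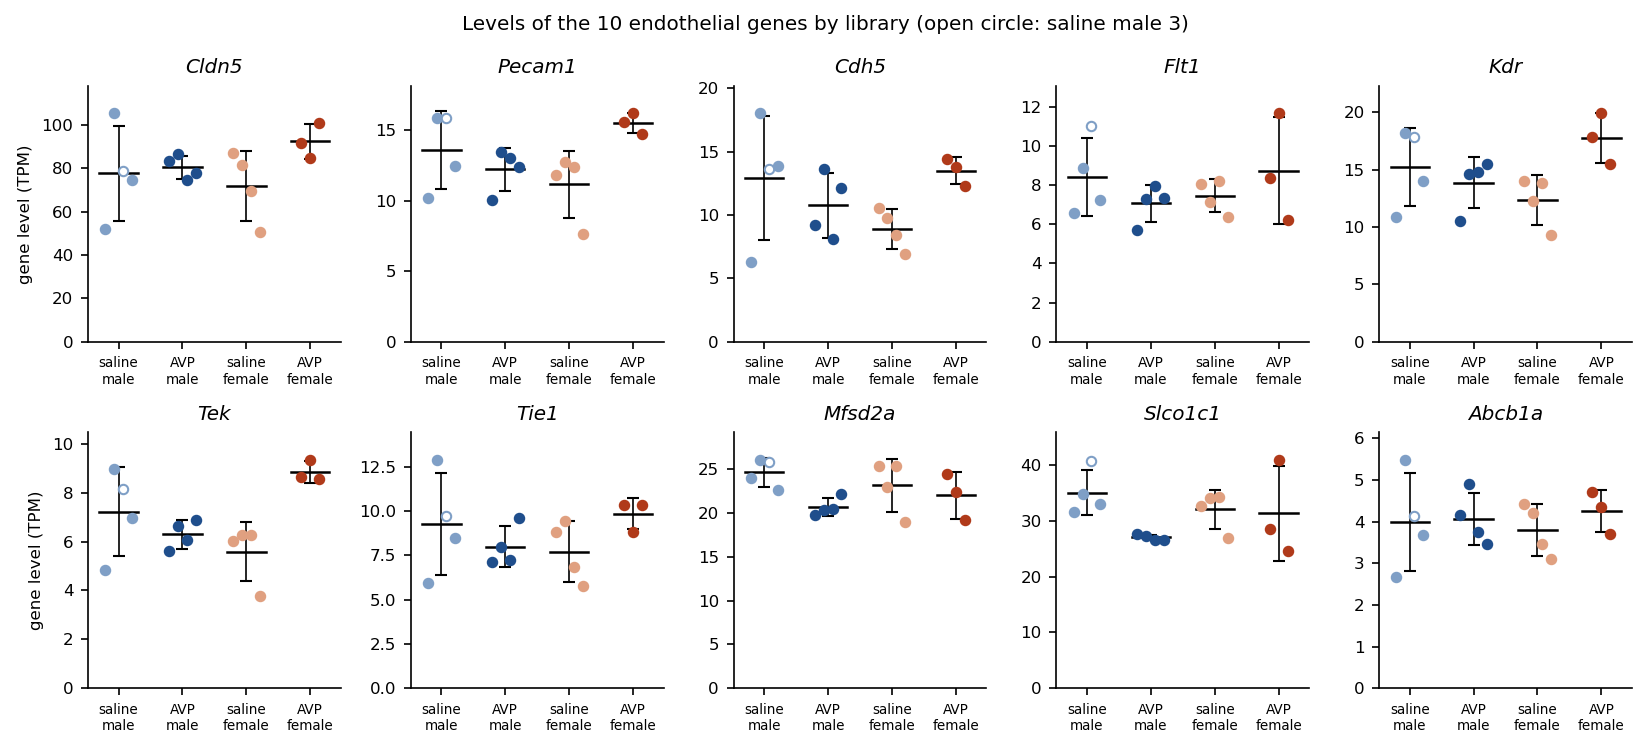
Gene level in TPM (y axis, from 0) of the 10 endothelial genes in each library, by group (x axis). Bars give the group mean ± SD and the open circle is saline male 3. The 3 AVP females lie above the 4 saline females for Pecam1, Cdh5, Kdr and Tek, and the 4 AVP males lie below the 4 saline males for Mfsd2a and Slco1c1.

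None of the 10 genes passed the threshold in males, in females, over both sexes, in the interaction of treatment and sex, or between saline females and saline males. Over all genes tested, the share that passed was 0.00655% in males, 0% in females, 0% over both sexes, 0% for the interaction and 0.0065% between saline sexes, so limma called almost nothing in any of these comparisons. The counts at an unadjusted p under 0.05 were 2057 of 15271 genes in males, 683 of 15132 in females, 1564 of 15078 over both sexes, 624 of 15078 for the interaction and 639 of 15385 between saline sexes. These counts moved with single libraries, to 1225 of 15051 in males and 385 of 15159 between saline sexes without saline male 3, and to 1233 of 15169 in males without AVP male 1. Without AVP female 2 they were 1605 of 15308 in females and 3638 of 15151 over both sexes. With all libraries, the members reached that level 2, 4, 1, 3 and 0 times in the order of the comparisons above. The paper's own test, Sleuth, which could not be run on TPM, called genes in both sexes, with none of the 10 members among them. Everything below is therefore a description of levels and unadjusted differences.

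Of the 3 junction and adhesion genes, Cdh5 and Pecam1 separated the female groups and Cldn5 did not. Cdh5 encodes VE-cadherin, the adherens junction protein that holds endothelial cells together (ENSMUSG00000031871, chr8:104101625-104144511, plus strand, GRCm38 with GENCODE M21). It measured 14.4, 13.8 and 12.3 TPM in AVP females and 10.5, 9.76, 8.39 and 6.92 TPM in saline females. Every AVP female was above every saline female. The difference was 0.59 on the log2 scale (SE 0.17, limma unadjusted p = 0.00776, adjusted p = 0.999), and the exact two-sided permutation p was 0.0286, the smallest that 3 against 4 libraries allow. In males the values were 9.24, 13.6, 8.09 and 12.1 TPM with AVP and 6.27, 18.01, 13.6 and 13.8 TPM with saline. The male groups overlapped fully, with saline male 1 lowest and saline male 2 highest, and the male difference was -0.19 (SE 0.30). It was -0.49 without saline male 1 and -0.0063 without saline male 2.

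Pecam1 encodes CD31, an adhesion molecule at endothelial cell borders (ENSMUSG00000020717, chr11:106654217-106750628, minus strand). AVP females held 15.6, 16.2 and 14.7 TPM and saline females 11.8, 12.7, 12.4 and 7.64 TPM. Summed over its transcripts, the female groups did not overlap, and saline female 4 was the lowest of all 15 libraries. The female difference was 0.48 on the log2 scale (SE 0.19, exact permutation p = 0.0571, limma adjusted p = 0.999), and 0.32 without saline female 4. AVP males held 10.03, 13.5, 13.04 and 12.4 TPM and saline males 10.2, 15.9, 15.8 and 12.5 TPM, which overlapped.

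Cldn5, the claudin that forms the main seal of brain capillaries (ENSMUSG00000041378, chr16:18776847-18778262, plus strand), has a single annotated transcript. It measured 91.4, 84.7 and 101 TPM in AVP females and 86.8, 81.4, 69.3 and 50.5 TPM in saline females. The lowest AVP female lay under the highest saline female, so these groups overlapped. The female difference was 0.38 (SE 0.18, limma adjusted p = 0.999), and 0.22 without saline female 4. In males it was 83.1, 86.3, 74.5 and 77.99 TPM with AVP and 52.02, 105, 78.8 and 74.7 TPM with saline, a difference of 0.09 (SE 0.18). The saline males enclosed the AVP males, and their SD of 21.8 TPM was the widest of the 4 groups, against 5.26 TPM in AVP males.

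Of the 2 VEGF receptors, Kdr separated the female groups and Flt1 did not, and the difference between the receptors was not tested. Kdr encodes VEGFR2, the receptor that carries most of the VEGF growth signal (ENSMUSG00000062960, chr5:75932827-75978458, minus strand). Its levels were 17.9, 19.9 and 15.5 TPM in AVP females and 14.03, 12.3, 13.9 and 9.27 TPM in saline females. The groups did not overlap, with a difference of 0.52 on the log2 scale (SE 0.18, exact permutation p = 0.0286, limma adjusted p = 0.999). Males held 10.6, 14.6, 14.8 and 15.5 TPM with AVP and 10.9, 18.2, 17.8 and 14.1 TPM with saline. AVP male 1 stood apart from the other 3 AVP males, and the male groups overlapped.

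Flt1 encodes VEGFR1, which binds VEGF tightly but signals weakly (ENSMUSG00000029648, chr5:147561604-147726011, minus strand). Its gene level was 8.34, 11.7 and 6.21 TPM in AVP females and 8.05, 7.15, 8.19 and 6.38 TPM in saline females. AVP female 2 was highest and AVP female 3 lowest of these 7 libraries, and the difference was 0.18 (SE 0.22). In males it was 5.71, 7.27, 7.95 and 7.33 TPM with AVP and 6.57, 8.89, 11.02 and 7.22 TPM with saline, a difference of -0.22 (SE 0.17). The highest male value was that of saline male 3, and without it the male difference was -0.09 (SE 0.16). The ratio of Kdr to Flt1 ranged from 1.71 to 2.50 in AVP females and from 1.45 to 1.74 in saline females, a pair chosen after the values were seen and given with no test.

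A short Flt1 transcript ends inside the gene and encodes a secreted receptor without the membrane span and kinase, known as a trap for VEGF and as a protein that placenta releases in preeclampsia. The full-length transcript (ENSMUST00000031653) has 30 exons and 3999 coding bases. The short one (ENSMUST00000110529) has 13 exons and 2064 coding bases, its first 12 coding exons the same as in the full-length form. In the short form exon 13 runs on into the intron, giving 92 coding bases of its own before the stop codon. The sequences below show where the 2 forms part, read 5′ to 3′ on the transcript from GENCODE M21. Lower case marks the last 30 shared bases and capitals the bases of each form alone.
Flt1 full-length: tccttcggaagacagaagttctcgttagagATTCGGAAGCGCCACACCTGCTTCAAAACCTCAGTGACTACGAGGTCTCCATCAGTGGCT
Flt1 short: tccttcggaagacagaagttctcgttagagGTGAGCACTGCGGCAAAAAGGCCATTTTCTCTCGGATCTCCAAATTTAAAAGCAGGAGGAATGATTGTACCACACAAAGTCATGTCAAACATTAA

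Both forms were made in every library, and the short form was the more abundant per length in 15 of 15. The full-length form ranged from 2.40 to 4.70 TPM and the short form from 3.05 to 6.06 TPM. The short form took 54.1%, 56.6%, 58.5% and 56.1% of coding Flt1 TPM in AVP males and 63.2%, 54.1%, 56.3% and 54.7% in saline males. It took 55.7%, 55.7% and 54.0% in AVP females and 59.4%, 56.4%, 58.2% and 50.4% in saline females. Saline male 1 had the highest share and saline female 4 the lowest, so the saline groups enclosed the AVP groups in females and nearly so in males. The AVP minus saline difference was -0.760 percentage points in males (exact permutation p = 0.8), -0.992 in females (exact p = 0.714) and -0.876 over both sexes with labels permuted within sex (exact p = 0.5996). Adjusted over these 3 tests, each p was 0.8. The other 4 Flt1 transcripts, none of them coding, summed to between 0.0266 and 1.13 TPM.

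**Figure D2:**
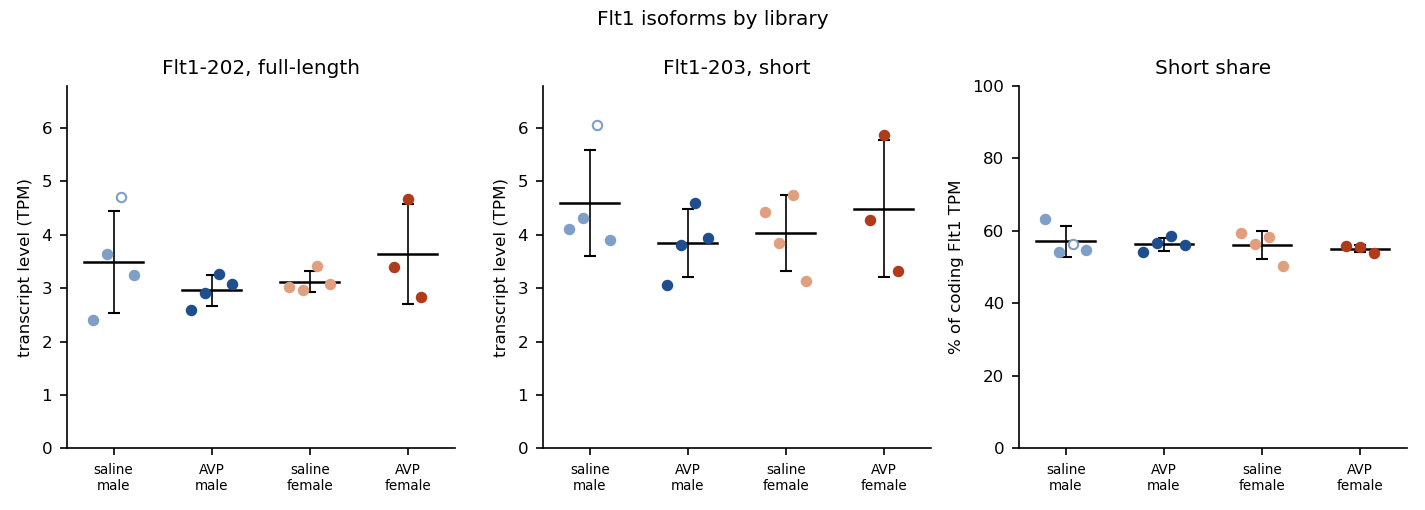
Transcript level in TPM of full-length and short Flt1, and the short form as a percentage of coding Flt1 TPM (y axes, from 0), by group with mean ± SD; the open circle is saline male 3. The share lies between 50.4% and 63.2% in every library and the groups overlap.

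Of the 2 receptors of the angiopoietin pathway, Tek separated the female groups and Tie1 did not. Tek encodes TIE2, the receptor through which angiopoietin 1 settles new vessels (ENSMUSG00000006386, chr4:94739289-94874976, plus strand). It stood at 8.65, 9.34 and 8.55 TPM in AVP females and at 6.04, 6.28, 6.26 and 3.79 TPM in saline females. Summed over its transcripts, the groups did not overlap, and saline female 4 was far below its group. The difference was 0.64 (SE 0.20, exact permutation p = 0.0286, limma adjusted p = 0.999), the largest among the members, and without saline female 4 or any other single female library it stayed between 0.48 and 0.70. Males held 5.61, 6.66, 6.05 and 6.90 TPM with AVP and 4.82, 8.97, 8.16 and 6.97 TPM with saline, and overlapped. The main coding transcript, Tek-203, at 53.4% of the gene's TPM, measured 4.05, 5.02 and 3.76 TPM in AVP females. In saline females it measured 3.99, 2.73, 4.68 and 2.56 TPM, so the female groups overlapped for this transcript. They overlapped for Tek-201, at 32.5%, too, and did not for Tek-202, at 12.7%.

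Tie1 encodes a partner of TIE2 that binds no angiopoietin by itself (ENSMUSG00000033191, chr4:118471191-118490061, minus strand). It measured 10.4, 8.83 and 10.3 TPM in AVP females and 8.82, 9.42, 6.85 and 5.76 TPM in saline females, which overlapped. The female difference was 0.35 (SE 0.19), and 0.23 without saline female 4. In males it was 7.14, 7.96, 7.22 and 9.62 TPM with AVP and 5.93, 12.9, 9.71 and 8.50 TPM with saline, a difference of -0.16 (SE 0.21).

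For the 3 transporter and pump genes the female groups overlapped, and Slco1c1 and Mfsd2a, though not Abcb1a, had every AVP male below every saline male. Slco1c1 encodes OATP1C1, which carries the thyroid hormone thyroxine across brain capillaries (ENSMUSG00000030235, chr6:141524368-141570177, plus strand). AVP males held 27.5, 27.3, 26.5 and 26.6 TPM and saline males 31.5, 34.8, 40.7 and 33.04 TPM. Summed over its transcripts, every AVP male was below every saline male, and the AVP males spanned only 26.5 to 27.5 TPM. The difference was -0.36 on the log2 scale (SE 0.09, limma unadjusted p = 0.00249, adjusted p = 0.304, exact permutation p = 0.0286). The median gene was itself 0.10 lower in AVP males, and relative to it the Slco1c1 difference was -0.26. Without saline male 3, its highest saline library, the difference was -0.29 (limma unadjusted p = 0.00482). Females held 28.4, 40.9 and 24.6 TPM with AVP and 32.7, 34.1, 34.3 and 26.96 TPM with saline. The AVP females spread on both sides of the saline females. The gene total included a transcript annotated for decay, Slco1c1-202, at 21.6% of the gene's TPM. Slco1c1-201, the main coding transcript at 68.3%, measured 22.9, 19.6, 21.1 and 14.9 TPM in AVP males. In saline males it measured 20.7, 25.7, 26.7 and 22.8 TPM, so the male groups overlapped for this transcript. The male limma unadjusted p of the gene was under 0.05 in 19 of 20 alternatives, with the highest at 0.0501.

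Mfsd2a carries the omega-3 lipid docosahexaenoic acid as lysophospholipid and keeps vesicle traffic across the endothelium low (ENSMUSG00000028655, chr4:122946850-122961188, minus strand). It measured 19.7, 20.3, 20.5 and 22.1 TPM in AVP males and 23.95, 26.04, 25.9 and 22.6 TPM in saline males. The male groups did not overlap, with a difference of -0.25 (SE 0.08, limma unadjusted p = 0.0123, adjusted p = 0.304, exact permutation p = 0.0286). With libraries brought to a common distribution by quantile normalization, which sets the median gene near 0, it was -0.12 and its unadjusted p was 0.110. Without saline male 3 it was -0.22 (limma unadjusted p = 0.0382). Females held 24.4, 22.4 and 19.2 TPM with AVP and 25.3, 22.96, 25.3 and 18.96 TPM with saline, and overlapped.

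Abcb1a encodes P-glycoprotein, the pump that returns drugs to the blood (ENSMUSG00000040584, chr5:8660077-8748575, plus strand). It ranged from 3.46 to 4.90 TPM in AVP males, 2.66 to 5.48 in saline males, 3.71 to 4.71 in AVP females and 3.11 to 4.42 in saline females, and the groups overlapped in both sexes, with differences of 0.05 in males and 0.15 in females. Its paralog Abcb1b is nearly identical, so reads shared by the 2 genes may have been split between them and both levels are uncertain. Abcb1b, chosen after its values were seen, measured 0.596 to 0.884 TPM in AVP males, 0.627 to 1.60 in saline males, 0.342 to 0.445 in AVP females and 0.685 to 1.27 in saline females. Its female groups did not overlap, in the direction opposite to Cdh5 and Tek, at a level under the filter used for the female test.

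**Figure D3:**
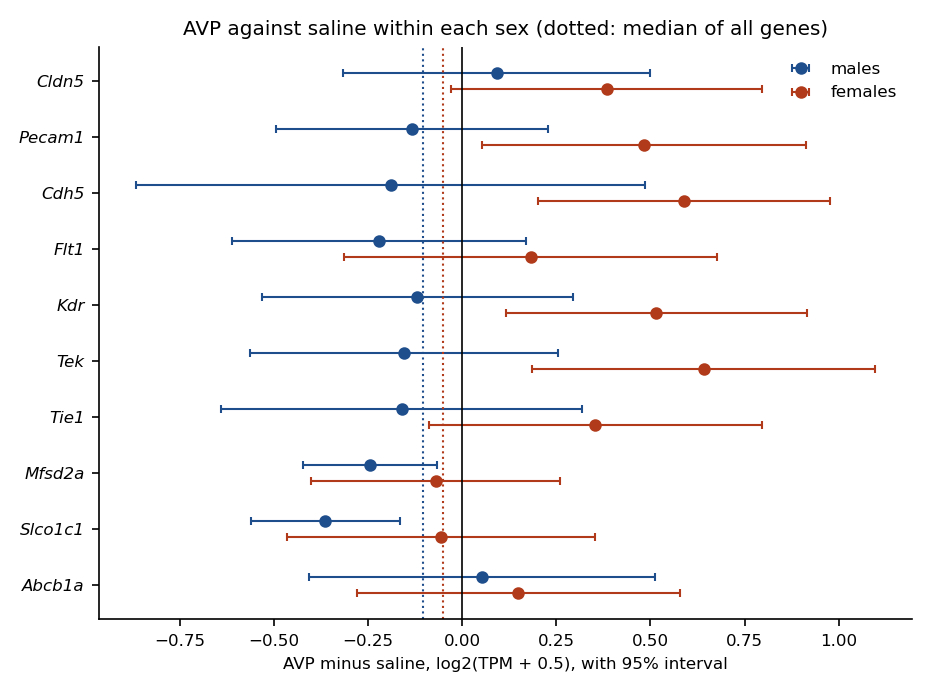
AVP minus saline difference on log2(TPM + 0.5) (x axis) for each of the 10 genes (y axis), in males and in females, with limma's unadjusted 95% interval; dotted lines are the median of all genes in each sex. Cdh5, Tek, Kdr and Pecam1 have female intervals above 0, and Mfsd2a and Slco1c1 have male intervals below 0.

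Counted together, 4 of the 10 genes had an unadjusted p under 0.05 and a higher level in AVP females, where 2.34% of all genes tested did so. The same 4 were the members with every AVP female above every saline female, against 2.78% of all genes. With 1 library left out, the level was lost by Pecam1 without AVP female 1 or AVP female 2 and by Kdr without AVP female 2. In males 2 of 10 were lower at that level, against 12.4% of all genes, and 2 of 10 had every AVP library below every saline library, against 6.54%. Without saline male 3 the 2 genes were lower at that level, against 7.10% of all genes. The median difference over the members was 0.37 in females, beside -0.05 over all genes, and -0.16 in males, beside -0.10. Under quantile normalization the male median was -0.02 and the female median 0.41. The 10 genes share cells and libraries and are not independent of each other, so these counts carry no p.

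The treatment difference was more positive in females than in males for 10 of 10 members, beside 61.2% of all genes, except that Abcb1a turned to -0.05 under quantile normalization. It was 0.80 for Tek (SE 0.27, limma unadjusted p = 0.0106), 0.64 for Kdr (SE 0.26) and 0.62 for Pecam1 (SE 0.25), and these 3 were the members at an unadjusted p under 0.05 with that sign, against 2.52% of all genes. Their adjusted p was 0.896. The median over members was 0.46, beside 0.07 over all genes. Saline females were below saline males in the group mean of log2(TPM + 0.5) for 10 of 10 members, beside 60.7% of all genes, by 0.04 to 0.44, except that Abcb1a turned to 0.03 under quantile normalization, and no unadjusted p was under 0.05. Over both sexes 1 of 10 members, Slco1c1, was lower with AVP at an unadjusted p under 0.05 (-0.22, SE 0.10, limma unadjusted p = 0.0471, adjusted p = 0.478), against 9.69% of all genes. That level was kept in 6 of 26 alternatives. The difference was -0.17 without saline male 3 (limma unadjusted p = 0.107), -0.12 under quantile normalization (limma unadjusted p = 0.152) and -0.15 under median-of-ratios scaling (limma unadjusted p = 0.0781).

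The library with female transcripts among the saline males bears on these values. Placed with the saline females by its transcripts, it held Pecam1 at 15.8 TPM, Cdh5 at 13.6 TPM and Kdr at 17.8 TPM, each above the lowest AVP female, and Tek at 8.16 TPM, below all 3. With it there, Tek was the member whose female groups still did not overlap. The female differences were then 0.53 for Tek, 0.47 for Cdh5, 0.41 for Kdr and 0.38 for Pecam1, with limma unadjusted p of 0.0307, 0.0407, 0.0607 and 0.0901. The interaction for Tek was then 0.62 (limma unadjusted p = 0.0554), and the saline sexes differed in the same direction for 7 of 10 members. With the library left out instead, the interaction was 0.73 for Tek (limma unadjusted p = 0.0232), 0.55 for Kdr and 0.54 for Pecam1, with unadjusted p of 0.0622 and 0.0588 for the last 2. Tek was then 1 of 10 at an unadjusted p under 0.05, against 1.54% of all genes more positive in females at that level. Saline females were still below saline males for 10 of 10 members without it, but Flt1 went from -0.15 to -0.02 and Slco1c1 from -0.13 to -0.05. In males the median over members was -0.09 without it, beside -0.08 over all genes.

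Markers of several other cell types moved with the female difference, and neural markers did not. Meningeal fibroblast markers summed to 311 to 395 TPM in AVP females and 176 to 223 TPM in saline females, and 10 of 11 were higher at an unadjusted p under 0.05. Of all genes tested, 2.34% were higher at that level, the background of the counts in this paragraph. Border macrophage markers summed to 48.8 to 56.3 TPM against 16.5 to 30.5 TPM, with 4 of 5 tested higher. The paper had called Col1a1, Col1a2, Dcn, Postn and Slc6a13 of the fibroblast list and Mrc1 of the macrophage list in these females. Both lists were chosen with earlier results of these data known, so their counts are no independent support. Mural cell markers, of the pericytes and smooth muscle that wrap endothelium, summed to 165 to 179 TPM against 112 to 147 TPM, with 3 of 10 tested higher. All 3 lists separated the female groups. Red blood cell genes summed to 5129 to 13658 TPM against 2241 to 5707 TPM, with 5 of 5 tested higher. Choroid plexus markers ran from 27.0 to 2290 TPM and from 8.00 to 965 TPM, with 2 of 5 tested higher and a median difference of 1.71. Microglial markers, 72.5 to 83.2 against 54.8 to 90.4 TPM, had none at that level. Neuronal markers summed to 4145 to 5040 against 4954 to 5461 TPM, with 2 of 9 positive and 1 lower at that level. Radial glia and astroglia markers summed to 1607 to 2790 against 2041 to 2454.5 TPM, with 1 of 8 positive. The female medians of these neural lists were -0.12 and -0.15, beside -0.05 over all genes. In males the sums overlapped for each of these lists, among them meningeal fibroblasts at 201 to 360 TPM with AVP and 113 to 387 TPM with saline. None of these lists had a gene past limma's adjusted threshold. The lowest marker of the mural list, Myh11, averaged 0.324 TPM, and that of the choroid plexus list, Kl, 0.323 TPM. Their part in the endothelial values was not tested.

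The 8 endothelial lists held other genes of endothelium and of the signals that reach it, 99 genes in all, and gave the surroundings of these members. Some, such as the Wnt ligands, are made by neural cells, so the pooled values below are not endothelial alone. In females 14 of the 91 genes tested were higher and 0 lower at an unadjusted p under 0.05. In males 0 of 93 were higher and 12 lower. None passed the adjusted threshold in either sex. The median difference was 0.23 in females and -0.18 in males, beside -0.05 and -0.10 over all genes. The shares of all genes given above, 2.34% higher in females and 12.4% lower in males, are the background of these counts, and the male count stood close to it. Without saline male 3 the male count was 6 lower of 93 tested, against 7.10% of all genes, with a median of -0.14. Positive values made up 36.9% of all genes in females and negative values 73.6% in males, and the sign counts of the lists below stand beside these shares. Signs in males depended on the scaling, since quantile normalization moved the male median of all genes from -0.10 to 0.02. The genes named from each list below are the 3 with the smallest unadjusted p over males and females. Small p and separated ranges are therefore part of how they were picked.

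Cell identity and adhesion genes held a median of 0.28 in females, with 15 of 17 positive and 4 higher at an unadjusted p under 0.05. Itm2a, a marker of brain endothelium, measured 83.4 to 91.1 TPM in AVP females and 45.0 to 71.3 TPM in saline females (difference 0.57, limma unadjusted p = 0.00438). Cd34, a sialomucin of endothelial surfaces, and Clec14a, an endothelial lectin, differed by 0.36 and 0.75 in females. In males Itm2a and Cd34 differed by 0.01 and -0.02, and Clec14a by -0.21.

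Tight junction genes other than Cldn5 had 6 of 7 positive values in females and 6 of 7 negative in males, or 4 of 7 negative in males under quantile normalization. Lsr, which builds junctions where 3 cells meet, measured 12.2 to 14.8 TPM in AVP females and 8.07 to 11.4 TPM in saline females, with no overlap. Jam2, a junctional adhesion molecule, differed by -0.33 in males (limma unadjusted p = 0.0415, or 0.0858 without saline male 3). Cgn, the junction plaque protein cingulin, differed by -0.48 in males and -0.31 in females.

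Transporter and pump genes had a male median of -0.23. All 12 tested were negative in males, where 73.6% of all genes were, and 9 of 12 under quantile normalization with a median of -0.10. Without saline male 3, 11 of 12 were negative and the median was -0.22. Of the 12, 3 had an unadjusted p under 0.05. Slc6a6, the taurine transporter, measured 44.2 to 55.0 TPM in AVP males and 61.7 to 73.3 TPM in saline males (difference -0.39, limma unadjusted p = 0.00156). Slc7a5, which carries large neutral amino acids, measured 55.2 to 60.4 TPM against 62.2 to 74.5 TPM (difference -0.26, limma unadjusted p = 0.00603). Neither pair of ranges overlapped. Without saline male 3 the 2 differences were -0.34 and -0.27 (limma unadjusted p = 0.00513 and 0.0131). In females Slc6a6 and Slc7a5 differed by -0.07 and 0.00275, while the efflux pump gene Abcg2 differed by 0.31 (limma unadjusted p = 0.0307). Several of these transporters are also made by neural cells, so their levels here are not endothelial alone.

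Ligands and receptors of vessel growth gave a mixed list, with medians of -0.07 in females and -0.12 in males, where quantile normalization gave 0.03. Vegfa, the main VEGF ligand, measured 54.1 to 113 TPM in AVP males and 113 to 150 TPM in saline males, with the highest AVP male just above the lowest saline male, a difference of -0.75 (SE 0.23, limma unadjusted p = 0.0106, adjusted p = 0.304). Angpt2, an angiopoietin that loosens vessels, differed by 0.78 in females, and Aplnr, the apelin receptor of growing endothelium, by 0.56. Vegfa differed by -0.09 in females, where AVP females ranged from 81.0 to 170 TPM.

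The Wnt and Norrin list had 12 of 16 positive values in females. Lef1, a transcription factor of the Wnt pathway, differed by 0.62 there, Adgra2, the Wnt7 co-receptor GPR124, by 0.57, and Sox17, a factor of arterial and barrier endothelium, by 0.53. In males the same 3 genes differed by -0.17, -0.13 and -0.15, and 14 of 16 genes of the list were negative, beside 73.6% of all genes, or 8 of 16 under quantile normalization and 10 of 16 without saline male 3. The transcription factor list had 9 of 11 positive values in females. Erg, an ETS factor that maintains endothelial identity, measured 0.405 to 1.46 TPM in AVP males and 1.46 to 1.86 TPM in saline males, a difference of -0.68, and differed by 0.59 in females. Its interaction was 1.27 (limma unadjusted p = 0.00379, adjusted p = 0.896), at a level near the filter. Without saline male 3 the male Erg difference was -0.69 (limma unadjusted p = 0.0404). Fli1, another ETS factor, and Sox7 differed by 0.57 and 0.52 in females.

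Vesicle genes were led by Cavin1, a coat protein of caveolae, at 12.4 to 14.2 TPM in AVP females and 5.74 to 10.05 TPM in saline females (difference 0.64, limma unadjusted p = 0.0125), with Cavin2 at 0.53. Cav1, the caveolin itself, differed by 0.07 in females and -0.35 in males. Arterial, venous and Notch genes had the lowest male median, -0.29, with 10 of 11 negative, or 8 of 11 and a median of -0.11 under quantile normalization. Acvrl1, the BMP receptor ALK1, differed by -0.44 in males and Dll4, the Notch ligand of tip cells, by -0.52. Gja4, the arterial connexin 37, differed by 0.51 in females.

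**Figure D4:**
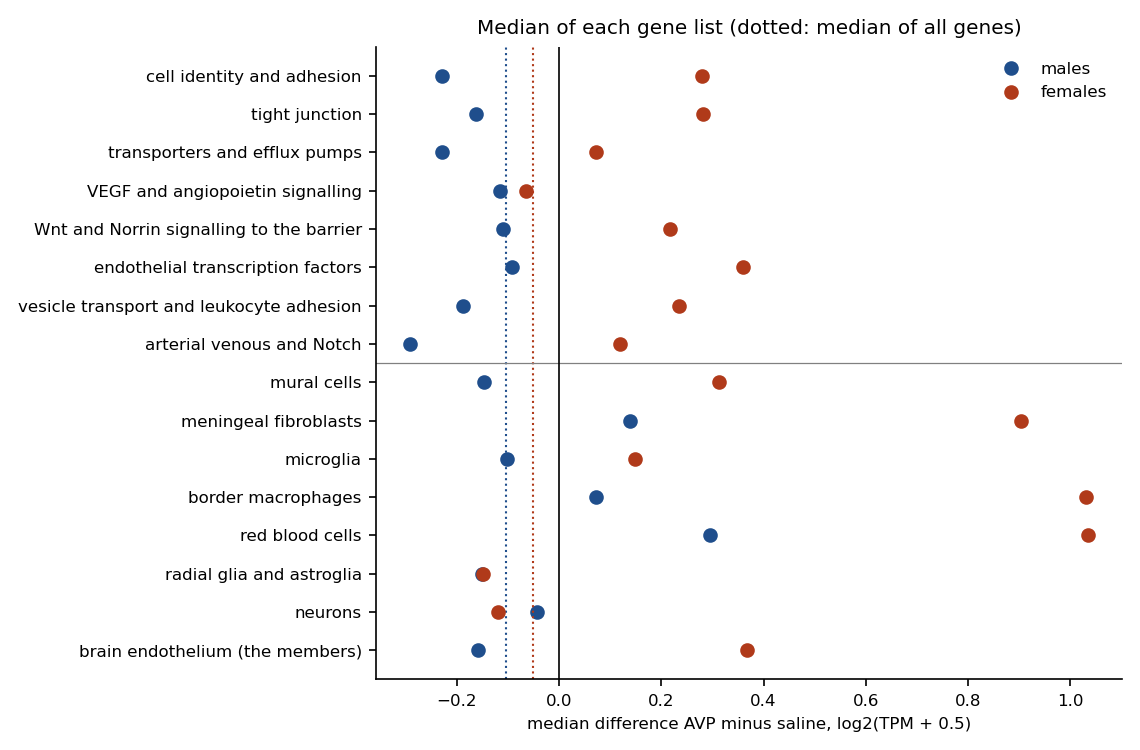
Median AVP minus saline difference on log2(TPM + 0.5) (x axis) over the tested genes of each list (y axis), in males and females, with endothelial lists above the grey line and marker lists of cell types below it; dotted lines are medians of all genes. Of the lists drawn, meningeal fibroblast, border macrophage and red blood cell markers have the largest female medians, at 0.90, 1.03 and 1.04, and the 10 endothelial genes lie at 0.37. Choroid plexus markers are not drawn because 2 of 8 were tested in males, and their female median, over 5 tested, is larger at 1.71.

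Within the groups, the members rose and fell together from library to library. After subtracting group means, the 45 pairs of members had Pearson correlations from 0.19 to 0.94 over 15 libraries, with a median of 0.69. The pair most alike was Tek and Pecam1 (0.94), followed by Kdr and Pecam1 (0.92) and Tek and Kdr (0.90). Against the mean of the other 9, Slco1c1 had the lowest r, 0.56 with Spearman's rho = 0.63, and Cldn5 the lowest rho, 0.58 with r = 0.77, whereas Tek had r = 0.95 and rho = 0.91. Saline male 1 and saline female 4 were low, and saline male 2 high, for most members. These libraries share their total and their dissection, and the correlations are given as a description.

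**Figure D5:**
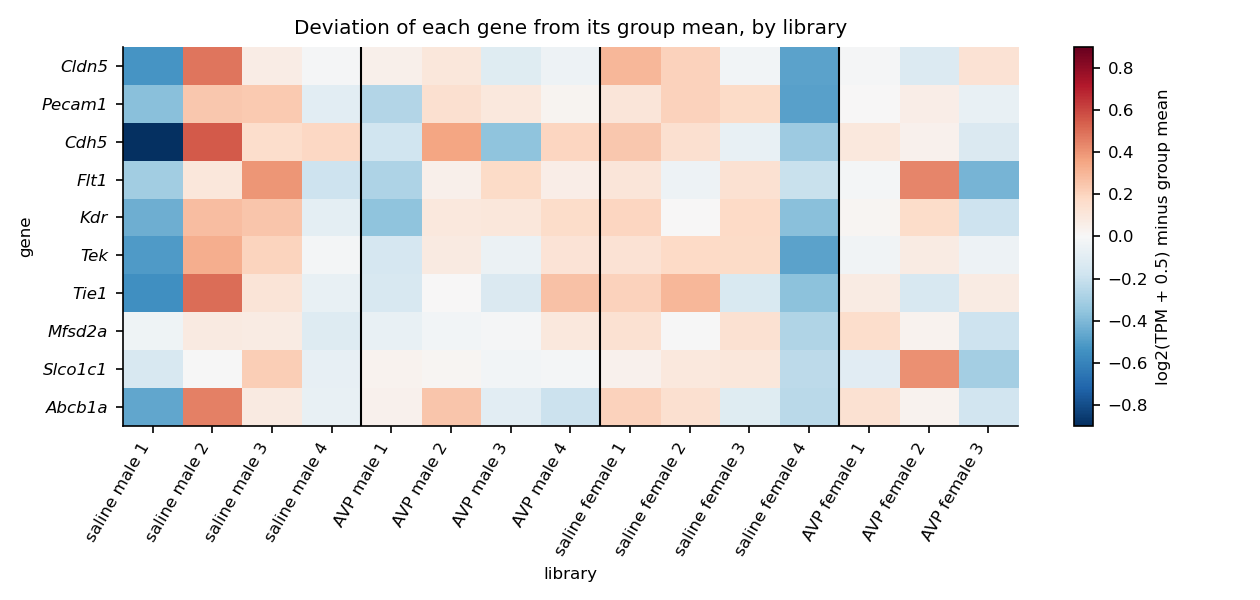
Deviation of log2(TPM + 0.5) from the group mean (colour) for each of the 10 genes (y axis) in each of 15 libraries (x axis, grouped). Saline male 1 and saline female 4 are below their group means for every member.

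The genes outside the list that followed the members most closely, by Pearson's r with the mean of the 10 standardised members over 15 libraries, were Ehd2 (0.96), a protein of caveolae, Rgs5 (0.94), a pericyte marker, Col4a6 (0.94), Lcp1 (0.94), Csf1r (0.94), Col4a5 (0.94), Col4a2 (0.93), Thsd1 (0.93), Col4a1 (0.93) and Sox7 (0.92), out of 15035 genes. Type IV collagens, the network of the basement membrane, made up 4 of these 10, and Lcp1 and Csf1r are known in white blood cells and microglia. Sox7 was the one gene among them on the endothelial lists. The gene nearest to a single member was Anxa2 for Cldn5, Lepr for Pecam1, Col1a2 for Cdh5, Tiprl for Flt1, Cd93 for Kdr, Sema3g for Tek, Col18a1 for Tie1, Ckap4 for Mfsd2a, Cr2 for Slco1c1 and Heph for Abcb1a, with r from 0.90 to 0.96.

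The mean of the mural markers followed the members with r = 0.87 and rho = 0.81, and r = 0.80 without the 2 libraries farthest from the median, saline male 1 and saline female 4. The same values were 0.84, 0.74 and 0.66 for border macrophages, 0.82, 0.75 and 0.65 for microglia, and 0.72, 0.66 and 0.49 for meningeal fibroblasts. For neurons r was 0.04 and for choroid plexus -0.01. The radial glia and astroglia markers gave r = 0.43 with the members as a whole and 0.80 with Slco1c1, beside 0.36 with Mfsd2a. Over these marker lists Slco1c1 was thus closest to the glial list and the members' mean to the mural list.

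Because Kdr and Tek moved together between libraries, their promoters are shown beside those of Flt1 and Tie1, the other receptor kinases. RefSeq held promoters for 8 of the 10 members, all but Pecam1 and Cdh5 (build GRCm38.p6). Each line gives the 250 bases before the RefSeq start site, 5′ to 3′ on the gene's strand. RefSeq and GENCODE place some starts differently, so most of the Tie1 window lies inside the GENCODE gene, and the Abcb1a window, counted but not printed, lies far upstream of the GENCODE start. Capitals mark AGGAAG, a core bound by ETS factors such as Erg and Fli1, or its reverse complement. The windows are chr5:147726012-147726261 on the minus strand for Flt1, chr5:75978456-75978705 minus for Kdr, chr4:94739039-94739288 plus for Tek and chr4:118489850-118490099 minus for Tie1.
Flt1: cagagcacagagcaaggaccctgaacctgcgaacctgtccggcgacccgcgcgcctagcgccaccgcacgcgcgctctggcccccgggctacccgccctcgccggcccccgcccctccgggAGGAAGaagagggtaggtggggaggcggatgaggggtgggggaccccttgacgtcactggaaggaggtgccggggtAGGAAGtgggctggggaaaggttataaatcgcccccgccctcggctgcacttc
Kdr: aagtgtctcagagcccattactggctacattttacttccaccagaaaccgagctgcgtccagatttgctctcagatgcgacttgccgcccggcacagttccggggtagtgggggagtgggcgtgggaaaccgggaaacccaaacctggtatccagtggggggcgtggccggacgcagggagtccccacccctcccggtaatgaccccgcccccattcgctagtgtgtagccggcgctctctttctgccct
Tek: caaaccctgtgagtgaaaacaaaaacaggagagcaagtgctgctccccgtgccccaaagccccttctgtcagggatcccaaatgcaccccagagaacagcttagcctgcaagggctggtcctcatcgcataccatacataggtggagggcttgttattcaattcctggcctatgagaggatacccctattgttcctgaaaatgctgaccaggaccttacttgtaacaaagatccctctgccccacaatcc
Tie1: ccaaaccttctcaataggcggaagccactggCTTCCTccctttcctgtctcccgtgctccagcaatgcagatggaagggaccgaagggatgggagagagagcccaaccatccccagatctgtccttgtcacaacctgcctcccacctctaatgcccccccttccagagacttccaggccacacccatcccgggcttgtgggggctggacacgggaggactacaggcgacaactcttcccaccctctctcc

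The 6 letters occurred 2 times in the Flt1 window and 1 time in that of Tie1, and not in those of Kdr or Tek. Other forms of the site were not counted, and the shorter core GGAA does occur on the other strand of the Kdr and Tek windows. Among the 8 members with a promoter, 4 held them, and 29.5% of all 32851 promoters in the table did so in windows of the same length. The match describes letters in a window and no binding was measured.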

How the data were processed

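The authors trimmed reads with Trim Galore 0.4.1, and quantified them against GENCODE M16 transcripts (GRCm38) with kallisto 0.43.1, per the paper's methods and the submitters' processing notes. The deposited table holds TPM, 1 value per transcript and library, and it names no unit: each library's values have the same sum. Libraries were stranded mRNA libraries, read from both ends. TPM were summed to 53337 genes with GENCODE M21, and 404 unmatched transcripts (0.154% to 0.199% of TPM) were left out. Because TPM hold no counts, the Sleuth test of the study could not be run.

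limma 3.58.1 in R 4.3.3 was fitted to log2(TPM + 0.5), with a mean-variance trend, keeping genes that reached 1 TPM in 50% or more of the compared libraries. It was run on simulated data drawn independently for each gene and library, which hold no shift shared by the genes of a library. The comparisons were AVP against saline within each sex, over both sexes with sex as a term, their interaction, and saline females against saline males. Isoform shares had exact two-sided permutation tests. A short Flt1 form was a coding transcript under 75% of the longest coding length. The 10 genes, the endothelial and cell type lists and the rule for named genes (3 per list by smallest p, the 10 genes most like the members, and the nearest gene per member) were chosen with earlier results of these data known. Alternatives were other scalings, filters of none or 5 TPM, pseudocounts of 0.1 and 1, no trend, the run of description numbers (1 to 8 or 13 to 20) as a term, coding transcripts alone, a single fit to all 15 libraries, and omitting each library in turn. Rescaling to genes of at least 200 nt and moving saline male 3 to the females were chosen after seeing the data.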

Additional observations from a re-analysis of the deposited data

Results flagged for a closer look

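In the groups of 4 libraries, 4 values of 45 groups examined stood apart from their group by Dixon's criterion, which chance exceeds in about 5% of groups. Kdr was 10.6 TPM in AVP male 1, below the other 3 AVP males, and Tek was 3.79 TPM in saline female 4, below the other 3 saline females. The other two values were both in saline male 3, whose Xist was 266 TPM and whose 4 Y-linked genes summed to 0.489 TPM. AVP male 1 had the largest share of TPM in transcripts under 200 nt. The part of these library features in the values was not tested. No member differed between the sexes in its response to AVP at the adjusted threshold.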

How the results depend on the processing

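No member passed the threshold in any of the 111 alternative fits. The smallest adjusted p was 0.0565, for Slco1c1 over both sexes, where it ran up to 0.777 over the alternatives and was 0.478 in the main fit. Of the 50 combinations of a member and a comparison, 36 kept their sign in every alternative, and the 14 that did not had differences of at most 0.18. Under quantile normalization the sign turned for Pecam1 (0.0002) and Kdr (0.0142) in males, Slco1c1 in females (0.0017), Flt1 over both sexes (0.0548), and Abcb1a in the interaction (-0.0504) and between saline sexes (0.0324). Flt1 over both sexes also turned under median-of-ratios scaling (0.0341) and rescaling to genes of at least 200 nt (0.0052). With saline male 3 moved to the females, the saline sexes turned for Flt1 (0.0914), Slco1c1 (0.0160) and Abcb1a (0.0154). Leaving out 1 library gave ranges that cross 0, in males -0.085 to 0.25 for Cldn5, -0.26 to 0.0012 for Kdr, -0.35 to 0.0071 for Tie1 and -0.10 to 0.20 for Abcb1a. In females they were -0.038 to 0.39 for Flt1, -0.16 to 0.023 for Mfsd2a and -0.26 to 0.096 for Slco1c1. Flt1 over both sexes ran from -0.15 to 0.046, Abcb1a in the interaction from -0.052 to 0.25, and between saline sexes Cldn5 from -0.27 to 0.064 and Abcb1a from -0.19 to 0.11. Without crossing 0, Cdh5 in males ran from -0.49 to -0.0063, Pecam1 from -0.26 to -0.045, Tek from -0.32 to -0.047 and Flt1 from -0.33 to -0.090, and in females Cldn5 ran from 0.22 to 0.48. The Flt1 short share ran from -1.74 to 1.28 percentage points in males, the highest without saline male 1, from -2.88 to 0.11 in females, the highest without saline female 1, and from -1.82 to 0.14 over both sexes. The cause of these changes was not tested. No paired analysis was possible because the labels give no numbers that pair libraries across groups. TPM hold no depth, so counting error is unknown, and 3 or 4 libraries a group limit what an exact test can reach.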
